A study of Mus musculus with 24 samples.

Results

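The genes described here are 41 mouse genes of mitosis and cytokinesis, taken as a fixed list of symbols. All 41 were found among the 17501 genes of the embryonic stem cell table and among the 16024 genes of the neural progenitor table. All 41 also passed the filter on low values in both, where 13916 and 13206 genes were tested. RNA sequencing covered 24 libraries. Mouse embryonic stem cells (mESC) gave 12 of them, and neural progenitor cells (NPC) differentiated from such cells gave the other 12; each of 6 Htt genotypes had 2 libraries per cell type. Htt encodes huntingtin, the protein whose expanded polyglutamine tract, coded by a CAG repeat, causes Huntington's disease. The genotypes were wild type (WT), a knockout of Htt (KO) and 4 heterozygous Hdh CAG knock-ins, labelled Q20, Q50, Q92 and Q111 after their repeat length. The growth protocol gives 89 repeats for the line titled Q92. The mESC grew with LIF on irradiated feeder fibroblasts, and the NPC in NS medium with EGF and FGF on laminin. Each repeat length was carried by 1 line as far as the labels state, so repeat length cannot be told apart from any other difference between lines. The design text calls the 2 libraries of a group biological samples; whether they came from separate cultures is not stated, and the p-values measure the spread between these libraries.

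Cells enter mitosis when cyclin B binds and activates the kinase Cdk1. Aurora and Polo kinases, condensins and kinetochore proteins then prepare chromosomes for the spindle, the spindle checkpoint holds the anaphase-promoting complex until all chromosomes are attached, and a contractile ring divides the cell. Most of these genes are transcribed in G2 and M phase, when the MuvB complex with B-Myb and FoxM1 acts on promoters with a cell cycle homology region (CHR), often together with CCAAT boxes bound by NF-Y. In the resting state the DREAM complex occupies the same elements and holds the genes low, and their RNA is widely used as a mark of dividing cells. In bulk RNA, fewer dividing cells and less RNA per cell cannot be told apart.

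The promoters of these genes are shown first. RefSeq promoter windows of 300 bases (250 before and 50 after the start, GRCm38.p6, first listed window of each gene) matched 34 of the 41 genes; Aurkb, Ccna2, Foxm1, Incenp, Smc4, Spc24 and Tpx2 had no entry. The search looked on both strands for the CHR as TTTGAA or TTCGAA and for the CCAAT box as CCAAT. A CHR match was found in 25 of 34 windows (73.5%), against 19.4% of the windows of 27025 genes. A CCAAT match was found in 24 (70.6%), against 37.9% of all windows, and both motifs in 22 (64.7%), against 7.7%. In 19 of the 34 (55.9%) a CHR match began within 30 bases of the start, against 3.35% of all windows. In 1 window a CHR and a CCAAT match shared bases. Neither motif was found in 7 windows, those of Birc5, Cit, Mad2l1, Mybl2, Ncaph, Nuf2 and Nusap1, which says only that these letters are not in these windows. The windows below were chosen for 6 genes named in the comparisons: Cdk1 (chr10:69352863-69353162, minus strand), Mki67 (chr7:135716330-135716629, minus strand), Iqgap3 (chr3:88081801-88082100, plus strand), Prc1 (chr7:80294201-80294500, plus strand), Ube2c (chr2:164769679-164769978, plus strand) and, as an example with neither motif, Nusap1 (chr2:119618048-119618347, plus strand). Capitals mark the CHR and CCAAT matches on either strand, so a CCAAT box on the other strand reads ATTGG and a CHR reads TTCAAA.
Cdk1: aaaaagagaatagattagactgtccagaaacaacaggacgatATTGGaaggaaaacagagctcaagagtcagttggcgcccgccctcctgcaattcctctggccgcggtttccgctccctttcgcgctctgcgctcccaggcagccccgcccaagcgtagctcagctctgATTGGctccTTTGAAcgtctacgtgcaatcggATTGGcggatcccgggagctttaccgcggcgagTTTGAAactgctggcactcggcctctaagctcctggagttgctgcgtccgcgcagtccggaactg
Mki67: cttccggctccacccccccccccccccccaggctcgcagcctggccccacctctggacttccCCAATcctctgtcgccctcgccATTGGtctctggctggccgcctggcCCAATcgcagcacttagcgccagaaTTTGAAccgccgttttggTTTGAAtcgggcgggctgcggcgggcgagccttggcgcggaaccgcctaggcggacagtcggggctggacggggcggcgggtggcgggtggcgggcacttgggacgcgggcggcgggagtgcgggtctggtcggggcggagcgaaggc
Iqgap3: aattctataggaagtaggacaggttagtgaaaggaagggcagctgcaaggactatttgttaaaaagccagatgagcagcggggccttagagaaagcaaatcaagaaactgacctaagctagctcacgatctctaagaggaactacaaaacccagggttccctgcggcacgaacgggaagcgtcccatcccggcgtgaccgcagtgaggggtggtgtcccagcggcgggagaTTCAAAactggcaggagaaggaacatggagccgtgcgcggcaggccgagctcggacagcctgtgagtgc
Prc1: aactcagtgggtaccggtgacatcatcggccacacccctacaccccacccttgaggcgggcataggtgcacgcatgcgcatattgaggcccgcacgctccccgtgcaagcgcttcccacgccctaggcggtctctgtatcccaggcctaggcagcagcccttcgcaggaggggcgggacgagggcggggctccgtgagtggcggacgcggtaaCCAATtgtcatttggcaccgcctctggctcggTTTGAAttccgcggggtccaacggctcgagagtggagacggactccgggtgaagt
Ube2c: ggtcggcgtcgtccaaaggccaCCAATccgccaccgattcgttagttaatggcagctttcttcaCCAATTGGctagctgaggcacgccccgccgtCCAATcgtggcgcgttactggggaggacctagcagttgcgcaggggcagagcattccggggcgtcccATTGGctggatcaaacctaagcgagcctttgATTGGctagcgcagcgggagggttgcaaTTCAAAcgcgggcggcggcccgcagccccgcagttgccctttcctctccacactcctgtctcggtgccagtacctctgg
Nusap1: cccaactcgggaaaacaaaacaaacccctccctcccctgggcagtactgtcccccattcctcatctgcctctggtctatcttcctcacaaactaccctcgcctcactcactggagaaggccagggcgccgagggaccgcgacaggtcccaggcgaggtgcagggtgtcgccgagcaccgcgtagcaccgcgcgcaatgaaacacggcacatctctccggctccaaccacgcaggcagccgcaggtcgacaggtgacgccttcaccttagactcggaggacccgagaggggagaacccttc

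The Cdk1 window held 2 CHR and 3 CCAAT matches, that of Mki67 the same numbers, and that of Ube2c 1 CHR and 6 CCAAT matches, of which a pair shares bases. Prc1 had 1 of each close to the start, and Iqgap3 had 1 CHR match and no CCAAT match. A match is a description of the letters, and no binding was measured.

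Values are normalised CPM as deposited, and pairs of values are given as replicate 1 and then replicate 2. The recovered reads of a library numbered 58546211 to 81502284 for mESC and 48525333 to 118038952 for NPC. The targeted gene was checked first. Htt was listed at 124 and 113 in WT, 139 and 68.5 in KO, 146 and 122 in Q20, 152 and 111 in Q50, 106 and 94.4 in Q92 and 99.3 and 91.5 in Q111 in mESC, so the library labelled KO 1 was not below WT there (log2 change -0.28 ± 0.31 SE, adjusted p = 1). In NPC, Htt was at 137 and 177 in WT and 100.1 and 94.9 in KO, with both KO libraries below both WT libraries (log2 change -0.67 ± 0.14 SE, adjusted p = 0.0673). The labelled cell types carried their markers: the summed level of 9 pluripotent stem cell markers in the mESC table was 1764 to 3270, and that of 6 in the NPC table was 5.32 to 108. The 2 highest of those NPC sums were the Q20 libraries, in which the stem cell factor Pou5f1 was at 90.1 and 87.4, against at most 0.4 in the other NPC libraries. Sox2 was not analysed here. The summed level of 9 neural progenitor markers was 4007 to 9383 in NPC, lowest in the Q20 libraries.

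Levels were compared between genes per kb of merged exon. Top2a, the topoisomerase that untangles chromosomes, was the highest of the 41 in WT of both cell types, at 296 normalised CPM per kb in mESC WT and 113 in NPC WT (mean of 2 libraries), and in every other group except NPC Q20, where the condensin subunit Ncapd2 stood above it (98.5 against 87.8). Cdc20, an activator of the anaphase-promoting complex, and Ccnb1, cyclin B1, followed in mESC WT at 174 and 152 CPM per kb. In NPC WT the next level belonged to Mki67, the Ki-67 protein that coats mitotic chromosomes, at 95.5 CPM per kb. Cit, the citron kinase of the midbody, and Foxm1, a transcription factor of G2 and M phase genes, were the lowest in WT of both cell types, with 3.73 and 3.56 CPM per kb in mESC WT and 2.57 and 5.19 in NPC WT. In NPC KO, Q20, Q50 and Q92 Foxm1 ranked 38 or 39 of 41 and was not among the 2 lowest. In GENCODE M21, exons of Foxm1, Ncapd2 and Top2a overlap another gene on the same strand, and those of Ccna2, Cdc20, Cdca8, Ncapg, Nusap1, Plk1, Prc1 and Ube2c one on the other strand, so reads of these 11 genes may be shared with it. The other 30 have no such overlap.

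In the NPC knock-in lines, the mitosis genes stood higher in the lines with longer repeats. Over the 8 knock-in libraries, 35 of 41 genes rose with CAG length and 0 fell, by limma on log2(normalised CPM + 1) at a Benjamini-Hochberg adjusted p under 0.05; of all genes tested, 22% were called, 12% higher and 10.1% lower. Slopes are given as the log2 change over the 91 repeats from 20 to 111. Their median over the 41 genes was 1.11, against 0.04 over all genes, and all 41 were positive, from 0.17 to 1.62. The mean of the 2 libraries rose at each step from Q20 to Q111 for 26 of the 41, against 8.5% of all genes, and fell at each step for 0. Q111 had the highest mean of the 4 lines for 39 genes, and the lowest mean was that of Q20 for 29 and that of Q50 for 12. Length differs between 4 lines only: fitted to 1 mean value per line, 0 genes passed the adjusted threshold (0% of all genes), and the median slope stayed 1.11. Without the Q111 line 22 were called, all higher, against 8.77% of all genes. Without the Q20 line, whose libraries held Pou5f1 RNA, 30 were called, all higher, against 8.09%. Within replicate number 1 alone the median slope was 1.22, with 41 of 41 positive, and within number 2 it was 1.08, with 40 positive.

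**Figure D1:**
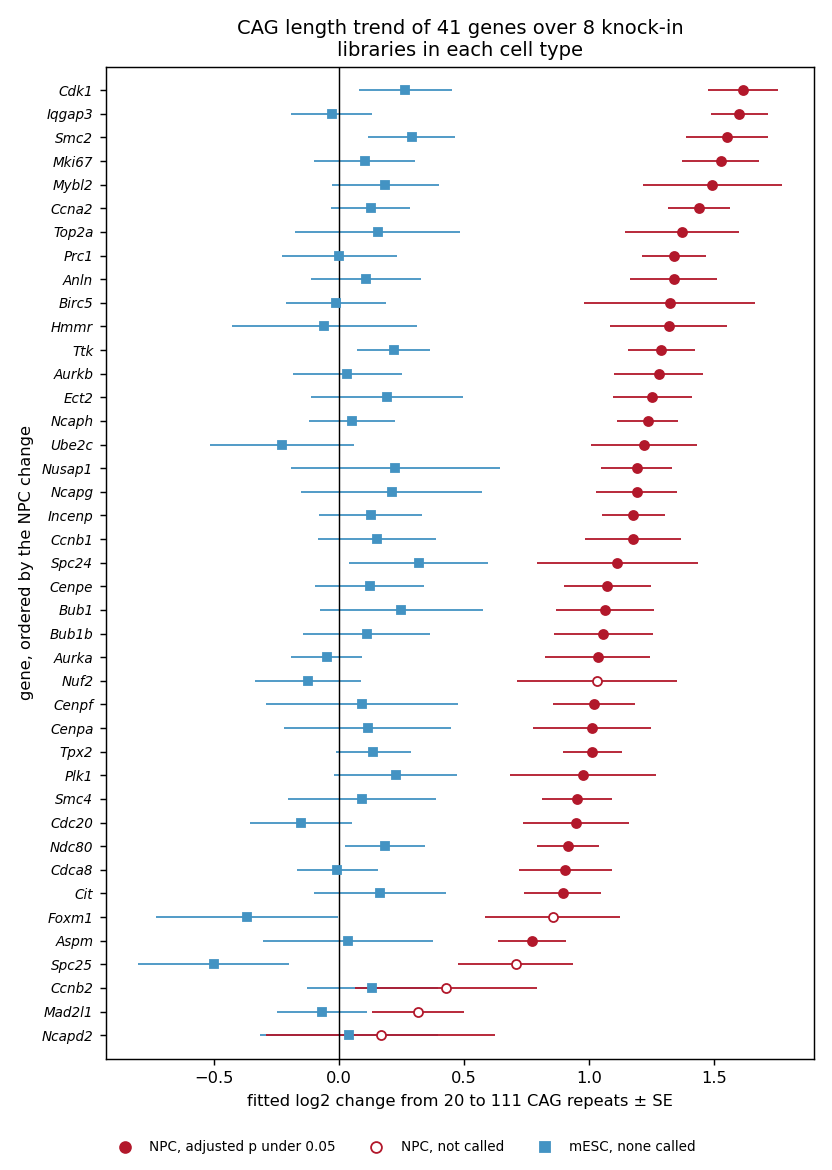
Fitted log2 change from 20 to 111 CAG repeats (horizontal axis, ± SE) for each of the 41 genes (vertical axis, ordered by the NPC value) over the 8 knock-in libraries of NPC (red circles, filled where the adjusted p is under 0.05) and of mESC (blue squares). All 41 NPC values lie above 0, from 0.17 to 1.62, while the mESC values lie on both sides of 0.

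Of the 8 genes of mitotic entry, 6 rose, with a median slope of 1.11 over the 8, like that of all 41. Cdk1, the kinase that drives entry, had the steepest slope of the 41 and was at 127 and 129 in Q20, 158 and 205 in Q50, 299 and 273 in Q92 and 408 and 406 in Q111. The 4 lines did not overlap in their Cdk1 values and stood in the order of repeat length (log2 change 1.62 ± 0.14 SE, adjusted p = 0.000828). Ccnb1, its cyclin partner, was at 165 and 173 in Q20, 152 and 193 in Q50, 283 and 254 in Q92 and 368 and 397 in Q111. Here Q20 and Q50 overlapped, and Q92 and Q111 stood above them (log2 change 1.18 ± 0.19 SE, adjusted p = 0.00522). Foxm1 was at 33.7 and 16.7 in Q20, 34.8 and 25.3 in Q50, 41.5 and 38.7 in Q92 and 44.4 and 42.2 in Q111. Its 2 Q20 libraries lay far apart and overlapped those of Q50, and it did not pass the threshold (log2 change 0.85 ± 0.27 SE, adjusted p = 0.0545). The other entry genes rising were the cyclin Ccna2, the kinases Plk1 and Aurka, and Mybl2, the B-Myb subunit. The second gene that did not pass was Ccnb2, cyclin B2, with a slope of 0.43.

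All 4 genes of the chromosomal passenger complex, which corrects attachments and marks the division site, rose, with slopes from 0.91 to 1.32. Aurkb, its kinase, was at 63.1 and 62.1 in Q20, 59.1 and 74.6 in Q50, 107 and 107 in Q92 and 154 and 151 in Q111. Aurkb overlapped between Q20 and Q50 and was higher in Q92 and highest in Q111 (log2 change 1.28 ± 0.18 SE, adjusted p = 0.00303). Of 6 genes of the spindle checkpoint and the anaphase-promoting complex, 5 rose: Bub1, Bub1b, Ttk, Cdc20 and the ubiquitin-conjugating enzyme Ube2c. Mad2l1, the checkpoint inhibitor of Cdc20, had a slope of 0.32 and was not called. Among 7 kinetochore and centromere genes 5 rose, with Nuf2 (slope 1.03, adjusted p = 0.0508) and Spc25 (slope 0.71, adjusted p = 0.06), both of the Ndc80 complex, not passing.

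Among the 7 genes of chromosome structure, 6 rose. Smc2, a core ATPase of condensin, was at 128 and 167 in Q20, 243 and 263 in Q50, 364 and 329.6 in Q92 and 461 and 469.6 in Q111, with no overlap between any lines (log2 change 1.55 ± 0.16 SE, adjusted p = 0.00112). Mki67 was at 501 and 554 in Q20, 776 and 853 in Q50, 1289 and 1074 in Q92 and 1529.5 and 1689.7 in Q111, also without overlap (log2 change 1.53 ± 0.15 SE, adjusted p = 0.000958). The condensin subunit Ncapd2 was the exception, with 410.4 and 634 in WT, 152 and 669 in KO, 652 and 582 in Q20, 201 and 464 in Q50, 602 and 479 in Q92 and 562 and 583 in Q111. Its 2 KO libraries differed more than the means of any pair of knock-in lines did, and Ncapd2 had the lowest slope of the 41, 0.17. Exons of Ncapd2 overlap Scarna10 and Gm28967 on the same strand, so its reads may be shared with them. All 4 spindle genes and all 5 cytokinesis genes rose. Iqgap3, a scaffold protein of the IQGAP family, was at 38.1 and 36.5 in Q20, 53.3 and 55.3 in Q50, 94.7 and 97.9 in Q92 and 114 and 109.8 in Q111. Replicates of Iqgap3 lay closer together than any pair of lines (log2 change 1.60 ± 0.11 SE, adjusted p = 0.000541).

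**Figure D2:**
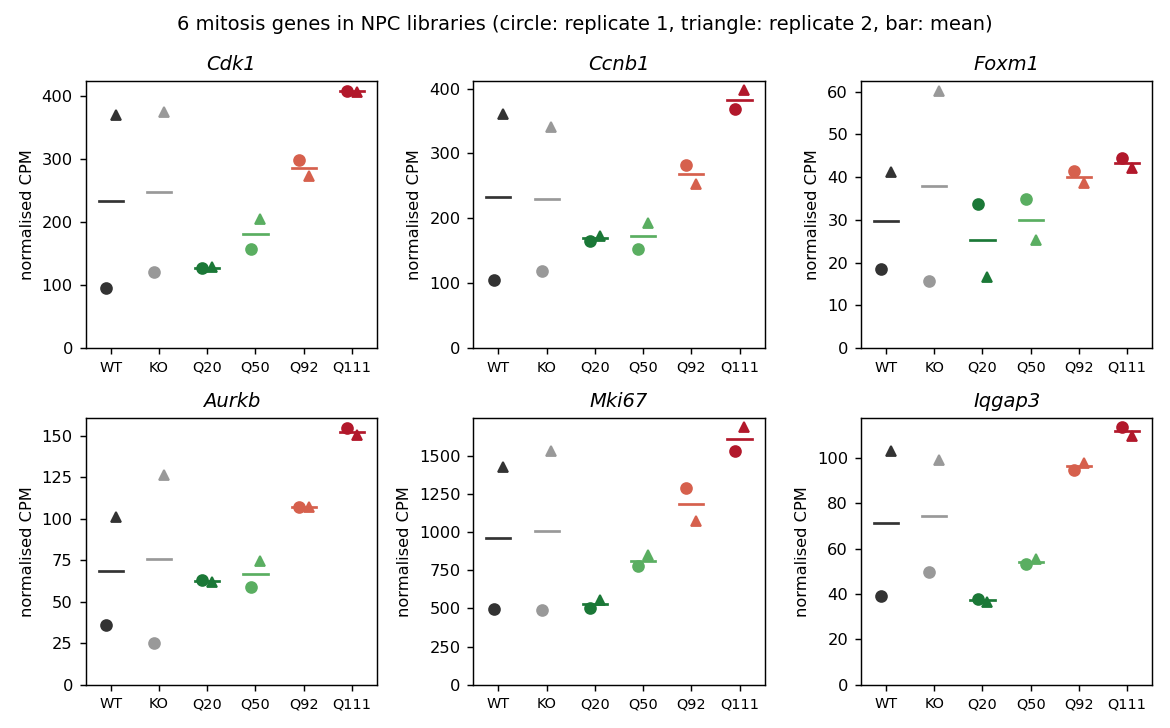
Normalised CPM (vertical axes, from 0) of 6 genes in each NPC library by genotype (horizontal axes), with replicate 1 as circles, replicate 2 as triangles and the mean of the 2 as a bar. Knock-in replicates lie close together and stand highest in Q111, except for Foxm1 in Q20, while the 2 WT and the 2 KO libraries lie far apart.

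Set against Q20 line by line, with the spread shared over all 12 NPC libraries, few genes passed. That spread includes the WT and KO libraries, whose replicates lay far apart in these genes. A low count in this fit therefore does not show a small change. For Q111 against Q20, 5 of the 41 rose (Iqgap3, Prc1, Nusap1, Cdca8 and Ndc80) and 0 fell. Of all genes, 28.3% were called and 12.2% called higher, so the 5 that rose were no larger a share than among all genes. The median change of the 41 was 1.15, against 0.03 over all genes, and for 40 both Q111 libraries lay above both Q20 libraries, which held for 40.3% of all genes. The 3 largest changes among the called genes were those of Iqgap3 (log2 change 1.56 ± 0.43 SE, adjusted p = 0.0293), Prc1 (log2 change 1.44 ± 0.37 SE, adjusted p = 0.0223) and Nusap1 (log2 change 1.24 ± 0.33 SE, adjusted p = 0.0252). Prc1, which bundles microtubules of the spindle midzone, was at 145 and 139 in Q20 and 399.5 and 374 in Q111. Nusap1, a microtubule binder of the spindle, was at 85.7 and 92 in Q20 and 216 and 206 in Q111. Without any 1 of the 4 Q20 and Q111 libraries the count was 0, with medians of 1.10 to 1.14. A fit to the 8 knock-in libraries alone, chosen after seeing the data, called 38 higher and left Ccnb2, Foxm1 and Ncapd2 uncalled; it called 26.2% of all genes higher.

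For Q92 against Q20, limma called 0 of the 41 (0 by edgeR), against 25.8% of all genes. At an unadjusted p under 0.05 were 6 of the 41 and 5273 of all 13206 genes. The median was 0.75, against 0.06 over all genes, and for 38 both Q92 libraries lay above both Q20 libraries, against 41.6% of all genes. The smallest p belonged to Iqgap3 (log2 change 1.34 ± 0.43 SE, adjusted p = 0.0509). Its change had an SE of 0.07 in the fit to the 8 knock-in libraries, which leaves out WT and KO. The fit to the 8 knock-in libraries called 34 higher, against 25.3% of all genes. For Q50 against Q20, 0 were called as well (0 by edgeR), against 18.8% of all genes. At an unadjusted p under 0.05 were 0 of the 41 and 4155 of all 13206 genes. The median was 0.14, and the groups did not overlap for 20 genes higher and 4 lower, against 35% and 35.2% of all genes. Cdca8, borealin of the passenger complex, had the smallest p there, with 56.5 and 61.5 in Q20 and 92.6 and 105 in Q50 (log2 change 0.73 ± 0.35 SE, adjusted p = 0.192). In the 8 knock-in libraries alone, 14 genes rose in Q50, Cdk1, Mki67, Smc2 and Prc1 among them, and Ccnb2 fell. Of all genes, 38.1% were called there in either direction, so those called were no larger a share than among all genes. The 3 comparisons share the Q20 libraries.

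The mESC lines of the same repeat lengths did not order the genes in this way. Over the 8 mESC knock-in libraries limma called 0 of the 41 for the trend (0 by edgeR), as for 0% of all genes. At an unadjusted p under 0.05 were 0 of the 41 and 358 of all 13916 genes. The median slope was 0.11, with 30 positive. Cdk1 was at 346 and 286 in Q20, 362 and 361 in Q50, 463 and 402 in Q92 and 393 and 322 in Q111, with Q92 highest and Q111 overlapping Q20 and Q50 (log2 change 0.26 ± 0.19 SE, adjusted p = 1). Mki67 was at 534 and 489.5 in Q20, 747 and 612 in Q50, 706 and 604 in Q92 and 589.5 and 516 in Q111, with Q111 overlapping Q20 (log2 change 0.10 ± 0.20 SE, adjusted p = 1). Iqgap3 stayed between 81.2 and 106 in all 8 libraries (log2 change -0.031 ± 0.16 SE, adjusted p = 1). Slopes of Ccnb1, Aurkb and Foxm1 were 0.15, 0.03 and -0.37. The smallest p was that of Smc2, with 478 and 348 in Q20, 375 and 463 in Q50, 511 and 487 in Q92 and 473 and 483 in Q111 (log2 change 0.29 ± 0.17 SE, adjusted p = 1).

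The difference of the slopes between the cell types was tested over the 16 knock-in libraries. The slope was higher in NPC than in mESC for 18 of the 41 genes and lower for 0; 4.86% of the 12321 genes tested in both cell types were called, 2.7% higher and 2.16% lower. The median difference was 1.06, against 0.05 over all genes. The largest belonged to Iqgap3 (log2 change 1.63 ± 0.18 SE, adjusted p = 0.000367), Ube2c (log2 change 1.45 ± 0.37 SE, adjusted p = 0.0375) and Mki67 (log2 change 1.43 ± 0.25 SE, adjusted p = 0.00524). Ube2c was at 77.3 and 78.1 in Q20, 65.8 and 78.4 in Q50, 132 and 122 in Q92 and 179.9 and 168 in Q111 in NPC and at 115 and 159 in Q20, 153 and 188 in Q50, 177 and 157 in Q92 and 93.2 and 125 in Q111 in mESC, so its Q111 libraries were the highest in NPC and had the lowest mean in mESC. The Ube2c call was lost under 11 of 20 other settings, with an adjusted p of up to 0.3696, while those of Iqgap3 and Mki67 were each lost under 1, the fit to 1 mean value per line. By role, the called genes were 4 of 8 for mitotic entry, 3 of 4 passenger complex genes, 3 of 6 checkpoint genes, 1 of 7 at the kinetochore, 3 of 7 of chromosome structure, 1 of 4 at the spindle and 3 of 5 of cytokinesis. These counts are from the fit without the replicate block. More genes were called with the block, and no test compared the roles. With NPC Q111 replicate 1 or 2 left out 10 were called, all higher, against 1.68% and 1.63% of all genes, and with 1 mean value per line 0 were called by limma, against 0% of all genes.

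**Figure D3:**
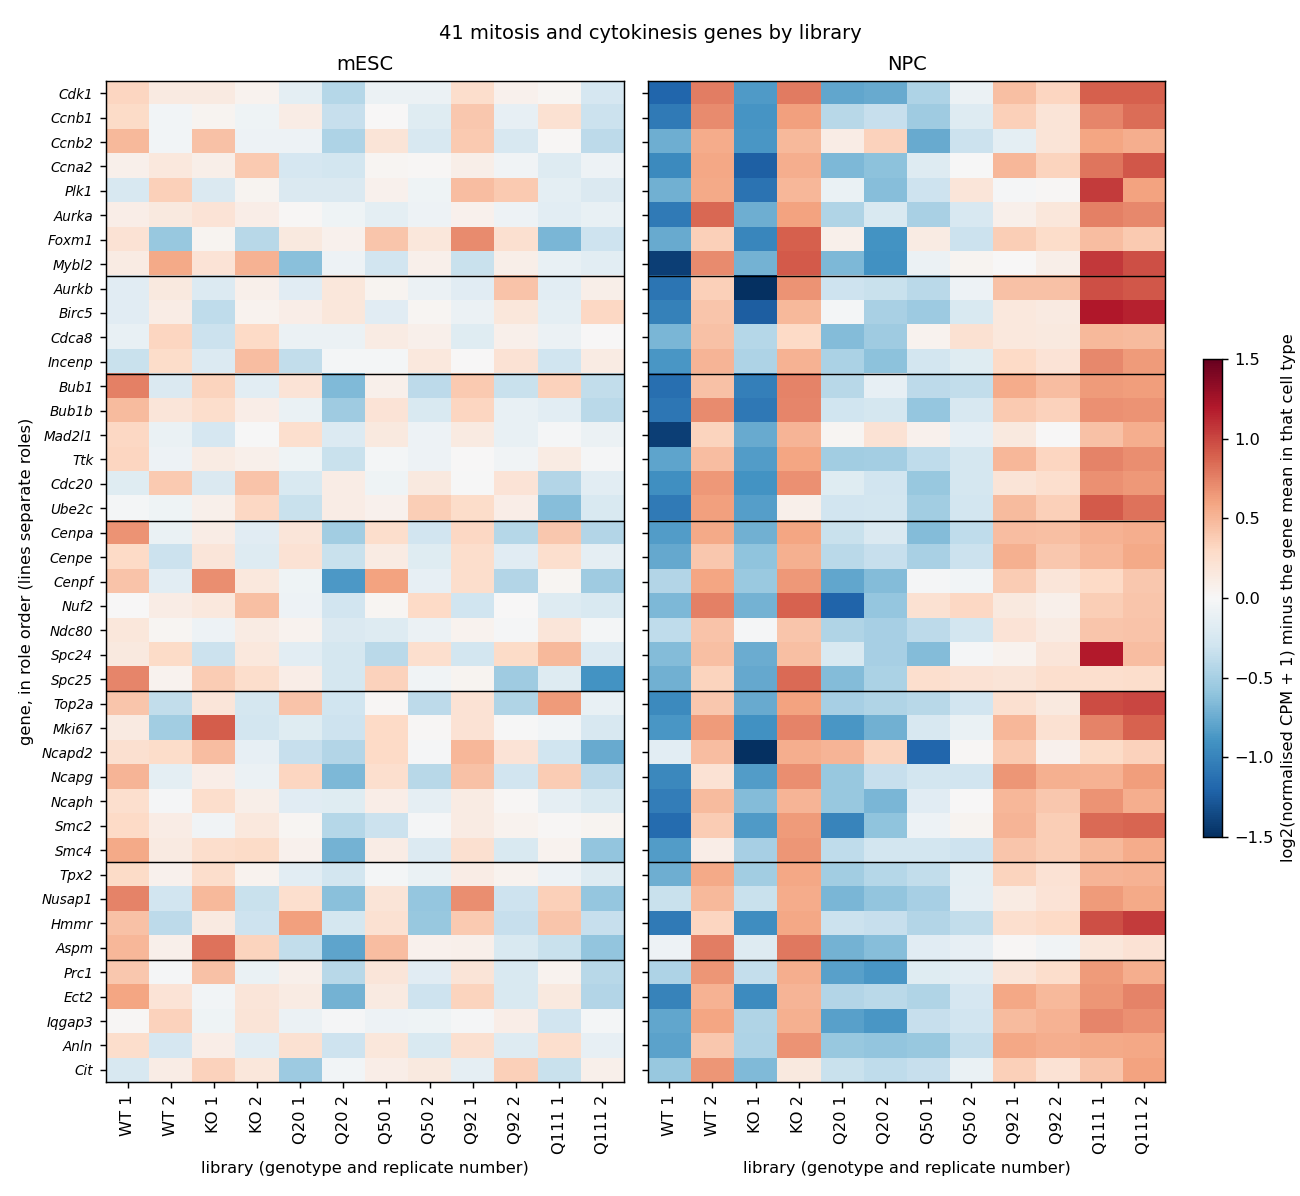
Level of each of the 41 genes (rows, grouped by role in the order entry, passenger complex, checkpoint, kinetochore, chromosome structure, spindle and cytokinesis) in each library (columns), as log2(normalised CPM + 1) minus the mean of that gene over the 12 libraries of the cell type; colours saturate at 1.5 in either direction. In NPC, WT 1 and KO 1 are low and WT 2, KO 2 and both Q111 libraries are high for nearly all genes.

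The 2 NPC libraries of WT and the 2 of KO stood far apart in these genes. All 41 were lower in replicate 1 than in replicate 2 in WT, with a median of -1.38 (2.6-fold), and again in KO, with a median of -1.36 (2.57-fold). Of all genes, 47.5% in WT and 50.5% in KO were higher in replicate 1. The knock-in replicates differed little, with medians of -0.03 in Q20, -0.18 in Q50, 0.08 in Q92 and -0.003 in Q111. The summed level of the 41 genes was 4412 and 10849 in WT and 4434 and 11596 in KO. It was 5418 and 5558 in Q20, 5876 and 6746 in Q50, 9602 and 8886 in Q92, and 12080 and 12324 in Q111. The knock-in lines thus lay between the 2 WT libraries or, for Q111, above the higher of them. WT 1 was below the means of all 4 lines for 33 genes, against 27.4% of all genes, and WT 2 was above the means of Q20, Q50 and Q92 for 33, against 22%. As a replicate number effect over all 6 NPC genotypes, 0 of the 41 and 0% of all genes were called (0 by edgeR), with 41 of 41 changes negative. At an unadjusted p under 0.05 were 3 of the 41 and 816 of all 13206 genes. The smallest p was that of Ccnb2, with 47.8 and 118 in WT, 43.4 and 113 in KO, 86.3 and 102 in Q20, 46.9 and 63.7 in Q50, 72.3 and 91.6 in Q92 and 121 and 118 in Q111 (log2 change -0.60 ± 0.20 SE, adjusted p = 0.55).

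Between KO and WT in NPC, every one of the 41 genes overlapped between the groups. Limma called 0 (0 by edgeR), against 1.42% of all genes, and 29.7% of all genes did not overlap. At an unadjusted p under 0.05 were 0 of the 41 and 1755 of all 13206 genes. The median change was 0.05, against 0.03 over all genes, and 29 were positive. Cdk1 was at 95.3 and 370.4 in WT and 121 and 375 in KO (log2 change 0.18 ± 0.64 SE, adjusted p = 0.949). Its SE was several times larger than the change, as the replicates of each group differed more than 3-fold. Mki67 was at 498 and 1424 in WT and 487 and 1531 in KO (log2 change 0.036 ± 0.56 SE, adjusted p = 0.987), Foxm1 at 18.5 and 41.2 in WT and 15.7 and 60.2 in KO (log2 change 0.16 ± 0.61 SE, adjusted p = 0.953) and Iqgap3 at 39.1 and 103 in WT and 49.6 and 99.1 in KO (log2 change 0.14 ± 0.43 SE, adjusted p = 0.941). In all 3 the libraries stood by replicate number and not by genotype. Ccnb1 was at 105 and 361 in WT and 119 and 340.3 in KO (log2 change 0.049 ± 0.58 SE, adjusted p = 0.984) and Aurkb at 36.1 and 101 in WT and 25.4 and 126 in KO (log2 change -0.089 ± 0.68 SE, adjusted p = 0.979). The smallest p belonged to Smc4, the partner of Smc2 in condensin, at 151 and 288 in WT and 190.1 and 426 in KO (log2 change 0.45 ± 0.38 SE, adjusted p = 0.707). Within replicate number 1 the median over the 41 was 0.11 and within number 2 it was 0.04, so both within-number values were close to the pooled one.

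Comparisons of knock-in lines with WT in NPC turned on the WT library used. For Q111 against WT limma called 0 of the 41 (0 by edgeR), against 16.6% of all genes, with a median of 0.87. At an unadjusted p under 0.05 were 5 of the 41 and 4505 of all 13206 genes. For 27 both Q111 libraries lay above both WT libraries, against 31.4% of all genes. Without WT replicate 2 the count was 28 higher, against 21.5% of all genes. Within replicate number 1 the median was 1.60 and within number 2 it was 0.09. Hmmr, a spindle and hyaluronan-binding protein, had the smallest p, with 61.2 and 162 in WT and 254 and 268 in Q111 (log2 change 1.38 ± 0.52 SE, adjusted p = 0.102). For Q20 against WT 0 were called (0 by edgeR), against 14.5%, with a median of -0.29. At an unadjusted p under 0.05 were 2 of the 41 and 3466 of all 13206 genes. Without WT replicate 1 the count was 6 lower, against 8.67% of all genes, and the median turned from 0.42 within number 1 to -0.97 within number 2. Aspm, which organises spindle poles, had the smallest p, with 322 and 578 in WT and 207 and 217 in Q20, both Q20 libraries being below both of WT (log2 change -1.02 ± 0.33 SE, adjusted p = 0.0815).

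Markers of other cell types also differed between the NPC libraries. The summed level of 7 astrocyte markers was 2133 and 1275 in WT, 1449 and 915 in KO, 2610 and 2306 in Q20, 1766 and 1170.0 in Q50, 348 and 556 in Q92, and 287 and 276 in Q111. These markers were thus higher in WT 1 and KO 1 than in WT 2 and KO 2 and lowest in Q92 and Q111. The summed level of the mitosis genes was lower in WT 1 and KO 1 than in WT 2 and KO 2 and higher in Q92 and Q111 than in Q20 and Q50, but the orders of the 12 libraries were not mirrored: WT 2 and KO 2 had higher sums than Q92 for both gene sets. Of the 7 astrocyte markers, 4 fell with CAG length and 0 rose, against 10.1% and 12% of all genes. The astrocyte water channel Aqp4 was at 102 and 5.76 in WT, 29.5 and 4.4 in KO, 253 and 247 in Q20, 89 and 39.7 in Q50, 4.28 and 7.3 in Q92 and 2.8 and 2.92 in Q111, and Gfap at 1.8 and 0.773 in WT, 4.3 and 0.9 in KO, 43.1 and 27.8 in Q20, 72.9 and 35.3 in Q50, 0.182 and 0.0938 in Q92 and 2.82 and 2.44 in Q111. The 10 feeder fibroblast markers summed to 30.6 to 45.4 over the WT and KO libraries, 257 and 320 in Q20, 898 and 920 in Q50, and 3.66 to 8.35 in Q92 and Q111, and 7 of the 9 tested fell with CAG length. That list is named after the feeders of the mESC cultures. The NPC grew on laminin, and which cells carried this RNA in NPC was not tested. The 9 progenitor markers summed to 4007 and 4191 in Q20, the lowest of the 12 libraries, 9214 and 9383 in Q50, the highest, and 5427 to 8079 in the others, and 2 of the 9 rose and 1 fell with CAG length. The 8 neuron markers summed to 753 to 1638, and the 2 lowest sums were those of Q111. Gene by gene, 4 of the 8 were called higher and 1 lower in Q20 against WT, where 14.5% of all genes were called. Against Q20, 6 were called lower and 1 higher in each of Q50 and Q92, with 18.8% and 25.8% of all genes called. In Q111 against Q20, 4 were lower and 0 higher, against 16.1% and 12.2% of all genes. With CAG length 1 fell and 0 rose. Members of these lists listed at 0 in some NPC library were Sox1 (progenitor), Stmn2 (neuron), Twist2 (fibroblast) and Pou5f1 and Tfcp2l1 (stem cell). The part of these cell type differences in the mitosis gene values was not tested.

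Other cell cycle genes in NPC were read from lists fixed by role. Of 72 other mitosis genes, 51 rose with CAG length and 0 fell, with a median slope of 0.98. Over all genes, 12% rose and 10.1% fell. The largest rises were those of the condensin II subunit Ncapg2, at 49.7 and 58.9 in Q20, 98.4 and 111 in Q50, 166 and 152 in Q92 and 247 and 254 in Q111 (log2 change 2.04 ± 0.17 SE, adjusted p = 0.000756), and of the centromere protein Cenpi, at 26.7 and 27.5 in Q20, 49.3 and 45.7 in Q50, 80.2 and 78.4 in Q92 and 93.8 and 95.9 in Q111 (log2 change 1.75 ± 0.14 SE, adjusted p = 0.000634). The 23 genes listed for S phase include the G1 cyclins Ccnd1, Ccnd2 and Ccnd3. Of the 23, 19 rose and 1 fell, with a median of 1.46. Ccnd1, cyclin D1, was at 130.2 and 140.3 in Q20, 1677 and 2029.9 in Q50, 1692 and 1808 in Q92 and 2298 and 2128 in Q111, with the Q20 libraries far below the other 3 lines (log2 change 3.44 ± 0.87 SE, adjusted p = 0.027). Ccne2, cyclin E2, was at 7.9 and 10.6 in Q20, 51.2 and 42.4 in Q50, 52.9 and 39.6 in Q92 and 81.7 and 92.1 in Q111 (log2 change 2.60 ± 0.51 SE, adjusted p = 0.0102), and Ccnd3 was the gene that fell (log2 change -0.83 ± 0.23 SE, adjusted p = 0.0372). Among 16 genes listed for cell cycle exit, 2 rose (Rbl1 and the MuvB gene Lin54) and 2 fell, with a median of 0.08. Both counts were close to the shares of all genes. Cdkn2a, which encodes the inhibitors p16 and p19Arf, was at 55.9 and 44.4 in Q20, 69 and 79.9 in Q50, 18.6 and 29.7 in Q92 and 9.33 and 5.71 in Q111, lowest in Q111 (log2 change -2.65 ± 0.61 SE, adjusted p = 0.0191). The pocket protein gene Rbl2 was at 83 and 82.4 in Q20, 80 and 75.8 in Q50, 52.2 and 62.3 in Q92 and 59.1 and 57.3 in Q111 (log2 change -0.58 ± 0.13 SE, adjusted p = 0.019). Between KO and WT in NPC, limma called 0 genes of these 3 lists, against 1.42% of all genes.

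**Figure D4:**
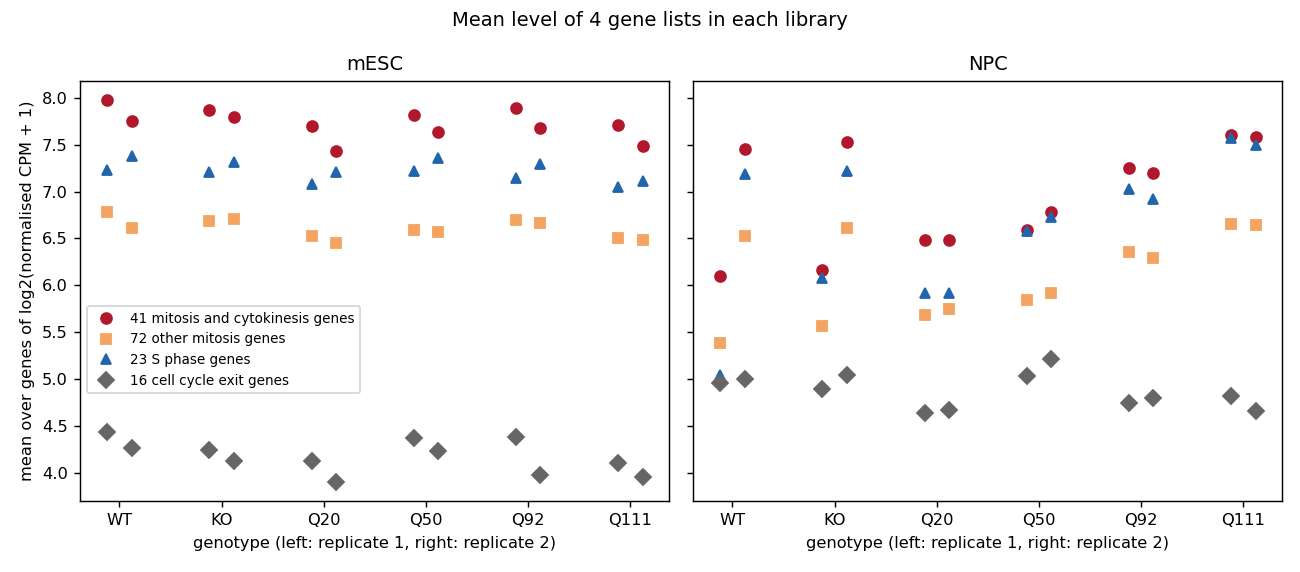
Mean over the genes of each list of log2(normalised CPM + 1) (vertical axis) in each library by genotype (horizontal axis; replicate 1 left, replicate 2 right), for mESC and NPC, whose tables were scaled separately. In NPC the mean of the 41 genes runs from 6.10 in WT 1 to 7.60 in Q111 1, while in mESC it stays between 7.43 and 7.97.

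In mESC none of the 6 comparisons between genotypes called any of the 41 genes in the fit of group means. For KO against WT limma called 0 of the 41 (0 by edgeR), against 0.0144% of all genes, with a median of -0.07. At an unadjusted p under 0.05 were 0 of the 41 and 553 of all 13916 genes. The library labelled KO 1 had Htt no lower than WT. Mki67 had the smallest p, at 669 and 423 in WT and 1137 and 503 in KO (log2 change 0.51 ± 0.36 SE, adjusted p = 1), a difference carried by the library labelled KO 1. Cdk1 was at 479 and 421 in WT and 423 and 399 in KO, Ccnb1 at 710.0 and 568 in WT and 599.9 and 557 in KO, and Iqgap3 at 100.5 and 127 in WT and 94.9 and 114 in KO, with overlapping groups for all 3 and log2 changes of -0.13, -0.14 and -0.12. Foxm1 and Aurkb changes were -0.01 and -0.05, with Foxm1 at 26.2 and 14.8 in WT and 23.1 and 16.5 in KO and Aurkb at 68.7 and 85.6 in WT and 67.2 and 82 in KO.

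Against WT, the Q20 and Q111 mESC lines had lower medians, -0.29 and -0.27, against -0.04 and -0.02 over all genes, with 36 and 35 of the 41 negative. Limma called 0 in both (0 by edgeR), against 0.323% and 0.316% of all genes. At an unadjusted p under 0.05 were 7 and 4 of the 41, against 1716 and 1554 of all 13916 genes. Both libraries lay below both of WT for 16 genes in each, against 20.4% and 18.7% of all genes. With the replicate number as a block, which pairs the libraries of each number across the mESC genotypes, 10 of the 41 fell in Q20 and 6 in Q111, against 4.69% and 3.08% of all genes, and 0 rose. Those that fell in Q20 were Cdk1, Ccnb2, Mybl2, Bub1b, Cenpf, Ncapd2, Tpx2, Nusap1, Aspm and Prc1, and those that fell in Q111 were Ccnb2, Bub1b, Spc25, Ncapd2, Aspm and Prc1; all were named for passing this fit. Both comparisons share the WT libraries. Markers of other cell types differed in the same comparisons. Feeder fibroblast markers summed to 17.4 and 21.2 in WT, 150.4 and 121 in Q20, 91.4 and 78.6 in Q50 and 115 and 93.9 in Q111, and of 8 tested 3 rose in each of Q20 and Q111 against WT, with medians of 2.01 and 1.59. Pluripotent stem cell markers had medians of -0.66 and -0.77, with 0 of 9 called in either. Neural progenitor markers had medians of 0.83 and 0.72, with 0 of 7 called in either. Their part in the mitosis gene values was not tested. Aspm was at 504 and 376 in WT, 275 and 204 in Q20 and 489 and 371 in Q50, low in Q20 (log2 change -0.88 ± 0.26 SE, adjusted p = 0.209, and 0.0053 with the block), and was also the gene with the smallest p for Q50 against Q20 (log2 change 0.84 ± 0.26 SE, adjusted p = 0.595, and 0.0211 with the block). Ncapd2 was at 524 and 535 in WT, 349 and 326 in Q20, 623 and 512 in Q92 and 359 and 262 in Q111, with Q111 below WT (log2 change -0.78 ± 0.24 SE, adjusted p = 0.263, and 0.0249 with the block) and Q92 above Q20 (log2 change 0.74 ± 0.24 SE, adjusted p = 0.739). Against Q20, the median was 0.16 in Q50, 0.25 in Q92 and 0.08 in Q111. Limma called 0 in each (0 by edgeR), against 0.00719%, 0.00719% and 0% of all genes. At an unadjusted p under 0.05 were 1, 3 and 0 of the 41, against 887, 747 and 374 of all 13916 genes. With the replicate block, Aspm and Cenpf rose in Q50 against Q20, 2 of the 41 against 0.611% of all genes. For Q111 against Q20 the smallest p was that of Foxm1 at 25 and 23.5 in Q20 and 13.6 and 17.8 in Q111 (log2 change -0.61 ± 0.33 SE, adjusted p = 1).

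In mESC the replicate number gave more calls among the 41 genes than any comparison of genotypes. Its changes ran in both directions, 28 positive and 13 negative, so their median does not measure their size. The tests were unlike: the replicate test set 6 libraries against 6 with genotype in the model. Each genotype test set 2 against 2 without a replicate block, so the counts of calls cannot be compared as sizes of effect. Across the 6 genotypes, 20 of the 41 genes were higher in replicate 1 and 5 lower, while 22.8% of all genes were called higher and 20.5% lower (43.3% in all). The median of the 41 was 0.19, against 0.005 over all genes. For 20 genes replicate 1 was higher in all 6 genotypes, against 21.7% of all genes, and for 4 it was lower in all 6, against 19.7%. Nusap1 was at 344 and 168 in WT, 287 and 163 in KO, 244 and 132 in Q20, 235 and 137 in Q50, 332 and 165 in Q92 and 264 and 137 in Q111, with replicate 1 above replicate 2 throughout (log2 change 0.91 ± 0.06 SE, adjusted p = 0.000113). Hmmr was at 426 and 239.6 in WT, 344 and 253 in KO, 481 and 262 in Q20, 367 and 212 in Q50, 413 and 248 in Q92 and 419 and 247 in Q111 and the checkpoint kinase Bub1 at 583 and 295 in WT, 435 and 309 in KO, 399 and 218 in Q20, 364 and 263 in Q50, 453 and 274 in Q92 and 439 and 266 in Q111, in the same order (log2 change 0.74 ± 0.07 SE, adjusted p = 0.000258 and log2 change 0.71 ± 0.08 SE, adjusted p = 0.000512). Of 9 pluripotent stem cell markers tested, 4 were lower and 1 higher in replicate 1, with a summed level of 1764 to 2698 in replicate 1 and 1853 to 3270 in replicate 2. Of 8 feeder fibroblast markers tested, 3 were lower and 2 higher, with a summed level of 17.4 to 150 in replicate 1 and 15.2 to 121 in replicate 2. Their part in the mitosis gene values was not tested, and what the replicate number stands for is not stated in the labels.

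Calls went in both directions, and no test compared the roles. All 4 passenger complex genes were lower in replicate 1, 3 of them past the threshold (Incenp, Birc5 and Aurkb), while 4 of 7 kinetochore genes, 5 of 7 of chromosome structure, 3 of 4 at the spindle and 3 of 5 of cytokinesis were higher past it and 0 of these lower. The other roles were mixed, with 3 higher and 1 lower of 8 entry genes and 2 higher and 1 lower of 6 checkpoint genes. Incenp, the scaffold of the passenger complex, was at 107 and 163 in WT, 116 and 186 in KO, 104 and 132 in Q20, 132 and 151 in Q50, 135 and 156 in Q92 and 109 and 147 in Q111, lower in replicate 1 in all 6 genotypes (log2 change -0.41 ± 0.08 SE, adjusted p = 0.00627). Cdc20 was at 261 and 388 in WT, 254 and 399 in KO, 253 and 319 in Q20, 283 and 327 in Q50, 295 and 339.7 in Q92 and 218 and 264 in Q111, likewise (log2 change -0.37 ± 0.08 SE, adjusted p = 0.00659). Mybl2 was at 407 and 552 in WT, 429 and 535 in KO, 240.4 and 354 in Q20, 305 and 393 in Q50, 295 and 396 in Q92 and 345 and 335 in Q111, lower in replicate 1 in 5 of the 6 genotypes (log2 change -0.34 ± 0.08 SE, adjusted p = 0.0116). Of the 72 other mitosis genes 19 were higher and 10 lower. In NPC, WT and KO replicates differed in 1 direction for all 41 genes; the difference between the cell types was not tested.

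**Figure D5:**
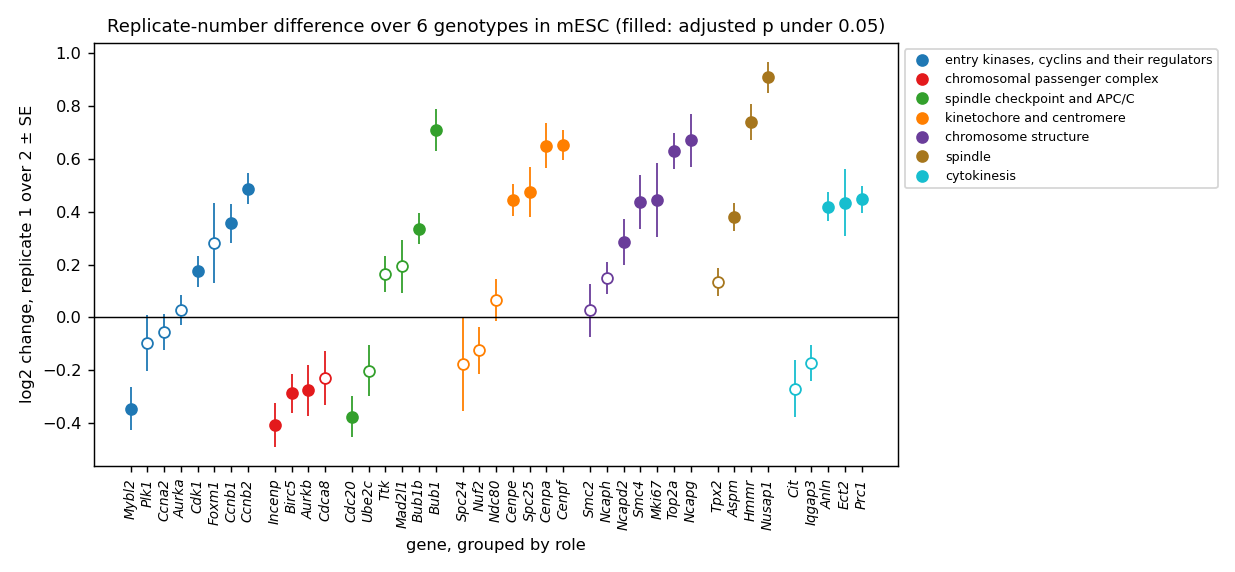
Log2 change of replicate 1 over replicate 2 across 6 genotypes in mESC (vertical axis, ± SE) for each of the 41 genes (horizontal axis, grouped by role and coloured by it; filled where the adjusted p is under 0.05). The 4 passenger complex genes lie below 0, and Nusap1 has the highest value, 0.91.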

How the data were processed

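The authors deposited a signal they named CPM, scaled per library, in 1 table per cell type. The submitters' processing notes name CASAVA 1.8, STAR and GRCm38.p6; how reads were counted, and whether by strand, is not given in the sources used here. All values were whole multiples of 1 step per library, within 0.05 reads, so the reads were recovered (100% whole). Identifiers matched GENCODE M21 for 99.94% of mESC and 99.95% of NPC genes.

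Genes with at least 1 CPM in at least 2 libraries were tested on log2(CPM + 1), which understates changes of low genes, with limma 3.58.1 (variance trend) in R 4.3.3, two-sided, with Benjamini-Hochberg adjustment over all tested genes and a threshold of 0.05. Each pair of groups used a model of 6 group means per cell type, and the trend used repeat lengths from the titles. edgeR 4.0.16 quasi-likelihood tests on recovered reads were the count alternative. Labels give the replicate numbers with no meaning. In mESC the replicate differences of all 15 pairs of genotypes correlated across genes (0.25 to 0.55), so the fit with the number as a block is given where it changed a call; in NPC only 3 of 15 pairs exceeded 0.1. Scripts were tested on simulated data. The gene list, roles, other lists and tests were chosen with earlier results of these data known. Values are named for the 3 largest rises and falls among called genes, otherwise for the smallest p, and for Cdk1, Mki67, Foxm1, Iqgap3, Ccnb1 and Aurkb in the knockout and trend comparisons.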

Additional observations from a re-analysis of the deposited data

Results flagged for a closer look

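For 18 of the 41 genes the slope on CAG length differed between NPC and mESC by the test of the difference itself, all with the higher slope in NPC. The largest differences were 1.63 for Iqgap3, 1.45 for Ube2c and 1.43 for Mki67, on the log2 scale over 91 repeats. The call of Ube2c was lost under 11 of 20 other settings. Those of Iqgap3 and Mki67 were lost under 1 each, the fit to 1 mean value per line. That fit takes each line as its unit and called 0% of all genes. Their NPC slopes were 1.60, 1.22 and 1.53, and their mESC slopes were -0.03, -0.23 and 0.10. Groups here hold 2 libraries, too few to look for a single outlying library.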

How the results depend on the processing

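Of 200 counts of called genes under other settings, 178 stayed within 1.5 times the value in the report and 22 did not. The pseudocount, the filter on low values, median-of-ratios scaling, 89 repeats for Q92 and edgeR were among the settings that did not move a count past that. With the replicate block, the counts became 10 for mESC Q20 against WT, 6 for mESC Q111 against WT, 2 for mESC Q50 against Q20, 2 for NPC Q92 against Q20 and 9 for NPC Q111 against Q20; the NPC trend gave 33 and the difference of slopes 27. The block changed no other call of a named gene in mESC. In NPC the libraries share only a number: replicate differences correlated across genes by -0.05 to 0.47, and 3 of 15 pairs of genotypes exceeded 0.1. Fitted to the libraries of both groups alone, NPC gave 12 in Q50, 34 in Q92 and 38 in Q111 against Q20; fitted to the 8 knock-in libraries, chosen after seeing the data, they were 15, 34 and 38. With 1 mean value per line the NPC trend and the difference of slopes each gave 0, a fit that leaves 2 residual degrees of freedom per cell type, and without the Q111 line the NPC trend gave 22. With 1 library left out, NPC Q111 against Q20 gave 0 to 0, NPC Q111 against WT 0 to 28, NPC Q20 against WT 0 to 6, and the difference of slopes 10 to 18; the lone library of a group was then assumed to vary like the others.

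Of the values of single genes, 550 kept direction and side of the threshold, 32 lost it, 12 gained it and 32 reversed, the last all in genes that were not called. With 1 library left out, the NPC KO against WT changes were -0.13 to 1.03 for Smc4, -0.80 to 1.15 for Cdk1, -0.79 to 0.86 for Mki67, -0.78 to 1.09 for Foxm1, -0.55 to 0.83 for Iqgap3, -0.83 to 0.93 for Ccnb1 and -1.22 to 1.05 for Aurkb; by edgeR Ccnb1 was -0.042 and Aurkb 0.11. The mESC KO against WT changes were -0.080 to 1.09 for Mki67, -0.41 to 0.38 for Foxm1, -0.28 to 0.046 for Iqgap3, -0.30 to 0.025 for Ccnb1 and -0.20 to 0.11 for Aurkb. The mESC slopes were -0.049 to 0.24 for Mki67, -0.074 to 0.086 for Iqgap3, -0.0070 to 0.35 for Ccnb1 and -0.082 to 0.15 for Aurkb; without the Q20 line that of Mki67 was -0.38, and without the Q111 line those of Foxm1 and Iqgap3 were 0.46 and 0.13. Apart from the fits with fewer samples, the cause was not tested.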

Other observations

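The NPC libraries WT 1 and KO 1, each lower than replicate 2 of its genotype in all 41 mitosis genes, differed from each other in the genes listed for S phase. The mean of log2(normalised CPM + 1) over these 23 genes, G1 cyclins included, was 5.04 and 7.19 in WT and 6.07 and 7.22 in KO, so WT 1 was the lowest NPC library. Ccnd1 was at 63.4 and 1167 in WT and 809 and 1405 in KO, and Ccne1, cyclin E1, at 5.01 and 56.2 in WT and 10.5 and 42.9 in KO; these genes were chosen after their values were seen. Over 16 cell cycle exit genes the same mean was 4.96 and 5.00 in WT and 4.89 and 5.05 in KO.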
